A study of Mus musculus with 8 samples.

Results

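Of the 54232 genes in the count table, 8 encode the chains that make up the receptors for interleukin (IL)-12, IL-23, IL-18, IL-6 and IL-27. These are *Il12rb1*, *Il12rb2*, *Il23r*, *Il18r1*, *Il18rap*, *Il6st*, *Il6ra* and *Il27ra*, and they were chosen by name, not by measured value. Each of these receptors contains a pair of different chains. IL-12Rβ1 (*Il12rb1*) pairs with IL-12Rβ2 (*Il12rb2*) to bind IL-12 and with IL-23R to bind IL-23, IL-18Rα (*Il18r1*) pairs with IL-18Rβ (*Il18rap*), and gp130 (*Il6st*) pairs with IL-6Rα (*Il6ra*) or with IL-27Rα (*Il27ra*). The tyrosine kinase TYK2 sits on IL-12Rβ1 and also takes part in signalling through gp130, whereas the IL-18 receptor signals through MyD88 and IRAK kinases without a Janus kinase. IL-12 and IL-18 are known together as inducers of interferon-γ in NK cells and T cells, and IL-6 as a signal to naive T cells.

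RNA was taken from splenic NK cells and splenic CD8+ T cells, purified by flow cytometry from mice labelled C57BL/6 (C57BL/6N in the methods of the study) and aged 8 to 12 weeks, under homeostatic conditions and with no treatment. All libraries used here come from mice labelled *Tyk2* knockout (*Tyk2*-/-), so the knockout is shared by both cell types and no genotypes are compared. There were 3 libraries per cell type, each from 3 pooled spleens, and they are numbered 1 to 3 within a cell type. The p-values measure the spread between such pools. Total counts ran from 20957384 to 26144478 in the CD8+ T cell libraries and from 32848432 to 38573550 in the NK cell libraries, and 3 counts or fewer were taken as not detectable. The libraries were amplified and counted without molecular identifiers, so floors cover counting error only. In bulk RNA of this kind, fewer cells of a type and less RNA per cell cannot be told apart.

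The targeted gene and the cell type markers were examined first. *Tyk2* gave 105, 919 and 554 raw counts in CD8+ T cell libraries 1 to 3 and 3864, 4245 and 3207 in NK cell libraries 1 to 3, so reads of the gene were found in every library labelled as its knockout. Which part of the gene is deleted is not given in the sources used here, and the counts therefore do not check the genotype label. The 5 NK cell markers (*Ncr1*, *Klrb1c*, *Klra8*, *Gzma* and *Eomes*) summed to between 41690 and 54228 CPM (counts scaled to a library total of 1000000) in NK cells and to between 42.2 and 94.7 CPM in CD8+ T cells, where *Ncr1* was at 0. The 5 CD8+ T cell markers (*Cd3d*, *Cd3e*, *Cd3g*, *Cd8a* and *Cd8b1*) summed to between 7854 and 9273 CPM in CD8+ T cells and to between 275 and 469 CPM in NK cells, where *Cd8b1* was at 0. The 3 reported B cell markers (*Cd79a*, *Cd79b* and *Ms4a1*) summed to 230.4, 164.4 and 32.5 CPM in CD8+ T cell libraries 1 to 3 and to between 0.062 and 52.6 CPM in NK cells. The 3 reported naive T cell markers (*Ccr7*, *Lef1* and *Il7r*) summed to between 2407 and 3182 CPM in CD8+ T cells and to between 169.7 and 225.0 CPM in NK cells. Of the 3 reported markers of other innate lymphoid cells (*Itga1*, *Cxcr6* and *Cd200r1*), *Cxcr6* made up nearly all of the sum in CD8+ T cells, with 11862, 6875 and 5095 counts in libraries 1 to 3, while *Cd200r1* had 418, 1 and 0 counts there and *Itga1* was at 0 there against 74, 223 and 51 counts in NK cells. The 3 summed to between 171 and 520 CPM in CD8+ T cells and to between 8.92 and 14.0 CPM in NK cells. Macrophage, neutrophil, erythroid and CD4+ T cell markers stayed under 5 CPM per list in every library.

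Across all genes, NK cells were compared with CD8+ T cells by edgeR's quasi-likelihood test, and a gene was called at an adjusted p-value below 0.05. Of the 7 receptor genes that passed the filter on low counts, 4 were called, 2 higher in NK cells (*Il12rb2* and *Il18r1*) and 2 higher in CD8+ T cells (*Il6st* and *Il6ra*). The background was 11.4% of 14062 genes tested, 6.24% toward NK cells and 5.14% toward CD8+ T cells. In 6 of the 7, no NK cell library overlapped any CD8+ T cell library (4 with NK cells above, 2 with CD8+ T cells above), and over all genes tested this held for 41.6% (25.5% with NK cells above, 16.1% with CD8+ T cells above). With DESeq2, 6 of the 7 were called, against 26.8% of 13910 genes. *Il23r* had 0 counts in all 6 libraries and was not tested.

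Promoters of the called genes are shown first, because these genes lay on opposite sides of the comparison. RefSeq promoters (assembly GRCm38.p6) were matched for 6 of the 8 genes, and the 250 bases before each start site were searched on both strands for 5 motifs. These were a T-box motif (TCACACC), the STAT-binding GAS motif (TTCNNNGAA), a TCF/LEF motif (CTTTGAT), the core of the interferon response element ISRE and a RUNX motif (TGTGGTT). Capitals mark GAS matches, the only motif of the 5 that was found in a promoter of the receptor genes. For *Il18r1*, which has 3 annotated start sites, only the stretch of the third window that lies outside annotated exons is printed. The *Il12rb2* window lies on the minus strand at chr6:67376189-67376438, the *Il18r1* stretch on the plus strand at chr1:40465811-40465969, the *Il6st* window on the plus strand at chr13:112463820-112464069 and the *Il6ra* window on the minus strand at chr3:89913197-89913446.
Il12rb2: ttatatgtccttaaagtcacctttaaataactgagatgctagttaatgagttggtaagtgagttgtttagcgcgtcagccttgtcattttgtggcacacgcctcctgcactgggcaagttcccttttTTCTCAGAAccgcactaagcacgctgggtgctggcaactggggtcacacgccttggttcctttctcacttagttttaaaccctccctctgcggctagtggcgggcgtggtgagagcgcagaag
Il18r1: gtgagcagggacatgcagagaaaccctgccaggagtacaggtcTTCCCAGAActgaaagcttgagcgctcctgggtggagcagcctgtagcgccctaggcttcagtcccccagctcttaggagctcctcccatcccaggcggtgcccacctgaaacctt
Il6st: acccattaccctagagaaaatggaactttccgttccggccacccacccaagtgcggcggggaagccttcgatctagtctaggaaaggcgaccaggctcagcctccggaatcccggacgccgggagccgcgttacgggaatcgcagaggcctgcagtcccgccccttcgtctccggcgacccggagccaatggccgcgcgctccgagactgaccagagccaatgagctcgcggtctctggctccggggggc
Il6ra: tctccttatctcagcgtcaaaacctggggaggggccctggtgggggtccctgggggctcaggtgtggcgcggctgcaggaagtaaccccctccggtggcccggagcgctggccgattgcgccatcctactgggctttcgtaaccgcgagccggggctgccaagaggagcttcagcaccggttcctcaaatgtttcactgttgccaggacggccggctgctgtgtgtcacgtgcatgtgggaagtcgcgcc
The *Il12rb2* window held 1 GAS match, TTCTCAGAA, from position -123 to -115 relative to the start site. The third *Il18r1* window held 2, TTCTGGGAA from -219 to -211, which lies in an exon of another *Il18r1* transcript and is not printed, and TTCCCAGAA from -152 to -144. A GAS match was found in 7.01% of 32817 promoters of the same length. The windows of *Il23r*, *Il18rap*, *Il6st* and *Il6ra* and the other windows of *Il18r1* held none of the 5 motifs. The shares of all promoters with a match were 3.33% for T-box, 3.21% for TCF/LEF, 2.97% for the interferon response core and 4.39% for RUNX. The GC content was 66.0% in the *Il6st* window, 65.2% in the *Il6ra* window and 50.0% in the *Il12rb2* window. It was 56.4% in the third *Il18r1* window and 60.4% in its printed stretch. All 250 bases of the *Il6ra* window lie in annotated exons.

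The signalling chain of the IL-12 receptor was found in NK cells and not in CD8+ T cells. *Il12rb2* (ENSMUSG00000018341, GRCm38 chromosome 6, 67291318 to 67376188, minus strand) had 0 counts in each of the 3 CD8+ T cell libraries and 1491, 1000 and 2158 counts in NK cell libraries 1 to 3. All NK cell libraries thus lay above all CD8+ T cell libraries, at 48.8 ± 19.1 CPM (SD, n = 3). Taking 3 counts over the 3 CD8+ T cell libraries as the limit, the level was at least 1253-fold higher in NK cells (adjusted p = 0.0057, edgeR). The call was lost when NK cell library 1 (adjusted p = 0.051) or NK cell library 3 (adjusted p = 0.054) was left out. Exons of *Il12rb2* share 1519 bases with the opposite-strand gene *Serbp1*, and the sources used here do not say if reads were counted by strand. *Serbp1* had 9681, 10496 and 9767 counts in the CD8+ T cell libraries in which *Il12rb2* was at 0.

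*Il12rb1*, the chain shared by the IL-12 and IL-23 receptors, was also higher in every NK cell library than in any CD8+ T cell library but missed the threshold. The gene (ENSMUSG00000000791, chromosome 8, 70808449 to 70821424, plus strand) had 0, 19 and 15 counts in CD8+ T cell libraries 1 to 3 and 1376, 564 and 595 in NK cell libraries 1 to 3. NK cell library 1 stood above the other two, and CD8+ T cell library 1 was the one without a count. The means were 27.1 ± 16.7 CPM in NK cells and 0.436 ± 0.407 CPM in CD8+ T cells (SD, n = 3 each), a ratio of 62.0. The log2 difference was 5.94 with a standard error of 1.64, a 95% interval from 2.01 to 9.87 and an adjusted p of 0.064 (edgeR). Without CD8+ T cell library 1 the difference was 5.37 and passed the threshold (adjusted p = 0.028), and it passed as well with DESeq2 (log2 difference 6.03, adjusted p = 8.5e-06). It did not pass with any other library left out. The difference was then lowest without NK cell library 1 (5.31, adjusted p = 0.21, edgeR) and highest without CD8+ T cell library 2 (6.74, adjusted p = 0.078, edgeR).

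*Il23r*, the chain that makes the receptor specific for IL-23, lies next to *Il12rb2* (ENSMUSG00000049093, chromosome 6, 67422932 to 67491855, minus strand), 46744 bases away. It was at 0 in all 6 libraries, and 3 counts over the 3 libraries of a cell type would be a level of 0.031 CPM in NK cells and 0.039 CPM in CD8+ T cells. Of this pair of neighbouring receptor genes, NK cells thus had counts for *Il12rb2* alone.

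Both chains of the IL-18 receptor were abundant in NK cells. *Il18r1*, the ligand-binding chain (ENSMUSG00000026070, chromosome 1, 40465552 to 40500854, plus strand), had 557, 335 and 880 counts in CD8+ T cell libraries 1 to 3 and 4856, 5918 and 5999 in NK cell libraries 1 to 3. The 2 cell types did not overlap, and the NK cell libraries lay close together, with a coefficient of variation of 6.75%. The means were 173.8 ± 11.7 CPM in NK cells and 22.4 ± 7.69 CPM in CD8+ T cells (SD, n = 3 each), a 7.76-fold difference. The log2 difference was 2.95 with a standard error of 0.35, a 95% interval from 2.12 to 3.79 and an adjusted p of 0.0044 (edgeR). With any 1 library left out the gene was still called, at an adjusted p between 0.0040 and 0.033.

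*Il18rap*, the chain that completes the signalling receptor, was less uniform among CD8+ T cells. The gene (ENSMUSG00000026068, chromosome 1, 40515362 to 40551705, plus strand) had 1, 3 and 756 counts in CD8+ T cell libraries 1 to 3 and 9168, 8237 and 9634 in NK cell libraries 1 to 3. CD8+ T cell library 3 alone was above the floor of 3 counts in its group, and all NK cell libraries were above it. The means were 282.3 ± 38.0 CPM in NK cells and 8.49 ± 14.6 CPM in CD8+ T cells (SD, n = 3 each), a ratio of 33.2. The log2 difference was 5.05 with a standard error of 2.03, a 95% interval from 0.19 to 9.91 and an adjusted p of 0.15 (edgeR), so that the gene was not called. One library decided this value. Without CD8+ T cell library 3 the difference was 11.63 with an adjusted p of 7.4e-04, and it then rested on the 1 and 3 counts of the other two. With all libraries, DESeq2 gave 5.14 and an adjusted p of 0.035.

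Markers of NK cells and of memory or effector T cells varied among the CD8+ T cell libraries, and not all in the same order. Library 3 was the highest CD8+ T cell library for 2 of the 5 NK cell markers. *Klrb1c*, which encodes NK1.1, gave 1, 76 and 525 raw counts in libraries 1 to 3, and *Eomes*, a T-box factor of NK cells and memory T cells, gave 825, 350 and 1553. *Gzma*, a granzyme, went the other way with 1412, 568 and 0 counts, *Ncr1* was at 0 in all of them, and *Klra8* had 1 count in library 2 alone. Of the 5 memory and effector markers library 3 was highest for 1, the chemokine receptor *Cxcr3*, with 2059, 697 and 6126 counts. *Ccl5* gave 24214, 8057 and 15610 counts, *Il2rb* 1286, 1229 and 840 and *Cd44* 9, 374 and 94, and *Klrg1* was above 0 in library 1 alone. That list summed to 1171, 439 and 759 CPM. Their part in the *Il18rap* value was not tested.

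**Figure D1:**
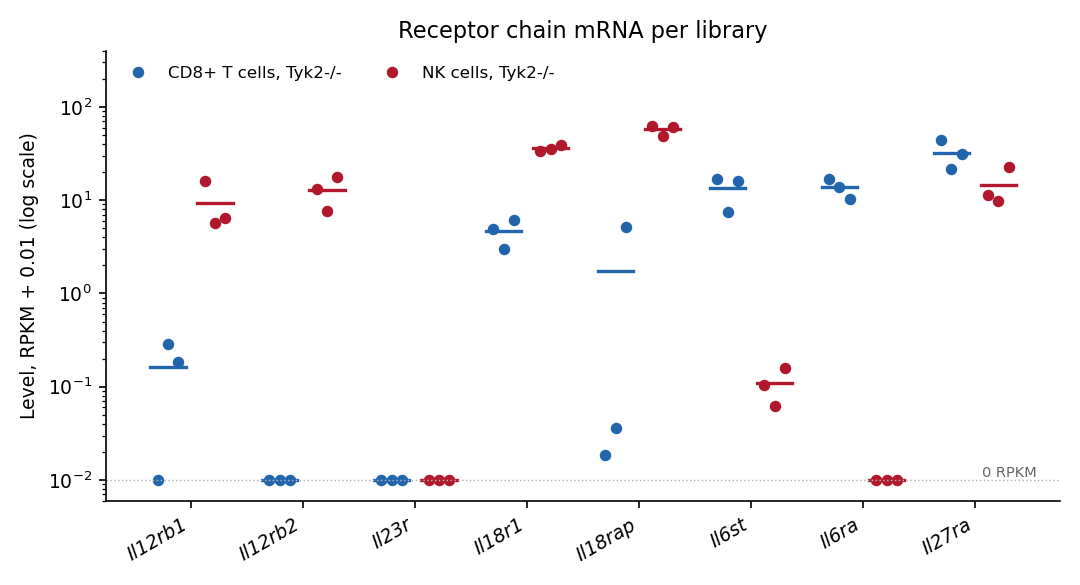
Level of each receptor chain as CPM per kilobase of exon (RPKM) plus 0.01, on a log axis, with 1 point per library and a bar at the mean of the 3 libraries of a cell type. The IL-12 and IL-18 receptor chains lie higher in NK cells (*Il18rap* at 48.8 to 63.1 RPKM), *Il6st* and *Il6ra* lie higher in CD8+ T cells, and *Il23r* is at 0 throughout.

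The IL-6 receptor chains showed the opposite pattern. *Il6st*, which encodes gp130, the signalling chain shared by the IL-6 family (ENSMUSG00000021756, chromosome 13, 112464070 to 112510086, plus strand), had 4392, 1953 and 5296 counts in CD8+ T cell libraries 1 to 3 and 31, 20 and 53 in NK cell libraries 1 to 3. Every NK cell library was above the floor, but all of them lay far below every CD8+ T cell library. The means were 148.7 ± 57.2 CPM in CD8+ T cells and 1.09 ± 0.536 CPM in NK cells (SD, n = 3 each), a 136-fold difference. The log2 difference, NK over CD8+ T cells, was -7.09 with a standard error of 0.64, a 95% interval from -8.63 to -5.55 and an adjusted p of 0.0016 (edgeR). The gene was called with any 1 library left out, at an adjusted p between 0.0029 and 0.017.

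*Il6ra*, the ligand-binding chain for IL-6, was not detected in NK cells. The gene (ENSMUSG00000027947, chromosome 3, 89864059 to 89913196, minus strand) had 3461, 2821 and 2679 counts in CD8+ T cell libraries 1 to 3 and 0 in each NK cell library. The CD8+ T cell libraries were at 146.5, 119.7 and 89.7 CPM, a mean of 118.6 ± 28.4 CPM (SD, n = 3). This is also the order of the B cell marker sum in these libraries (230.4, 164.4 and 32.5 CPM), and its part in the *Il6ra* level was not tested. Against 3 counts over the 3 NK cell libraries, the level was at least 3810-fold higher in CD8+ T cells (adjusted p = 0.0012, edgeR), and it was called with any 1 library left out, at an adjusted p between 0.0038 and 0.0079. Exons of *Il6ra* share 242 bases with the antisense gene *Gm42809*, which had 0, 43 and 21 counts in CD8+ T cells and 0 in each NK cell library.

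*Il27ra*, the IL-27-specific chain (ENSMUSG00000005465, chromosome 8, 84030294 to 84042589, minus strand), was the member with the smallest difference. It had 2773, 1352 and 2492 counts in CD8+ T cell libraries 1 to 3 and 908, 903 and 1954 in NK cell libraries 1 to 3. In CPM, NK cell library 3 (60.8 CPM) lay above CD8+ T cell library 2 (57.4 CPM), so the cell types overlapped. The means were 86.1 ± 30.1 CPM in CD8+ T cells and 39.2 ± 18.8 CPM in NK cells (SD, n = 3 each), a ratio of 2.20. The log2 difference was -1.14 with a standard error of 0.47, a 95% interval from -2.26 to -0.01 and an adjusted p of 0.16 (edgeR), and it was not called with any 1 library left out. Between these cell types, a difference in *Il27ra* beyond the spread of the libraries was therefore not shown.

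**Figure D2:**
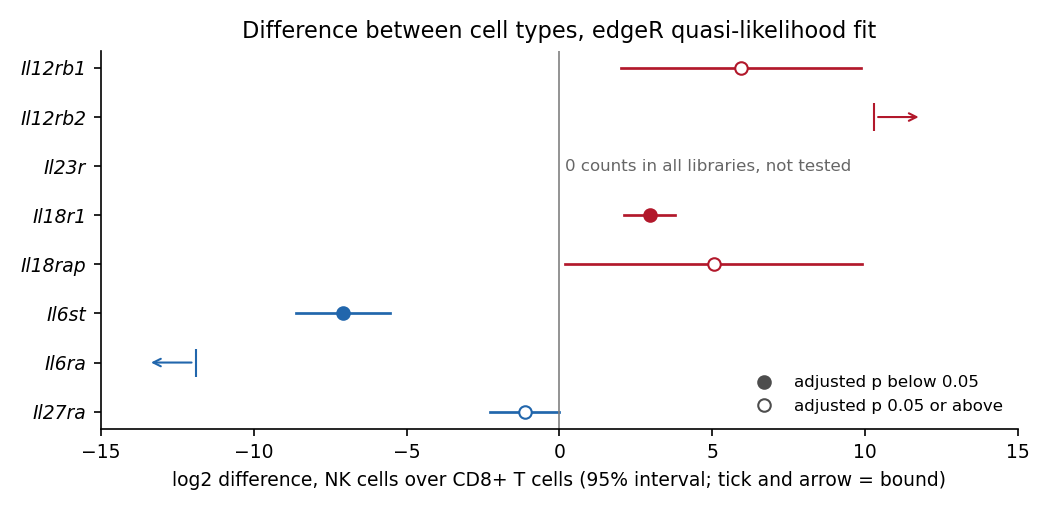
The log2 difference of each receptor chain, NK cells over CD8+ T cells, with the 95% interval of the edgeR fit, filled where the adjusted p was below 0.05. For *Il12rb2* and *Il6ra* a tick with an arrow marks the bound against 3 counts (10.29 and -11.90), and *Il18rap* has the widest interval, from 0.19 to 9.91.

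**Figure D3:**
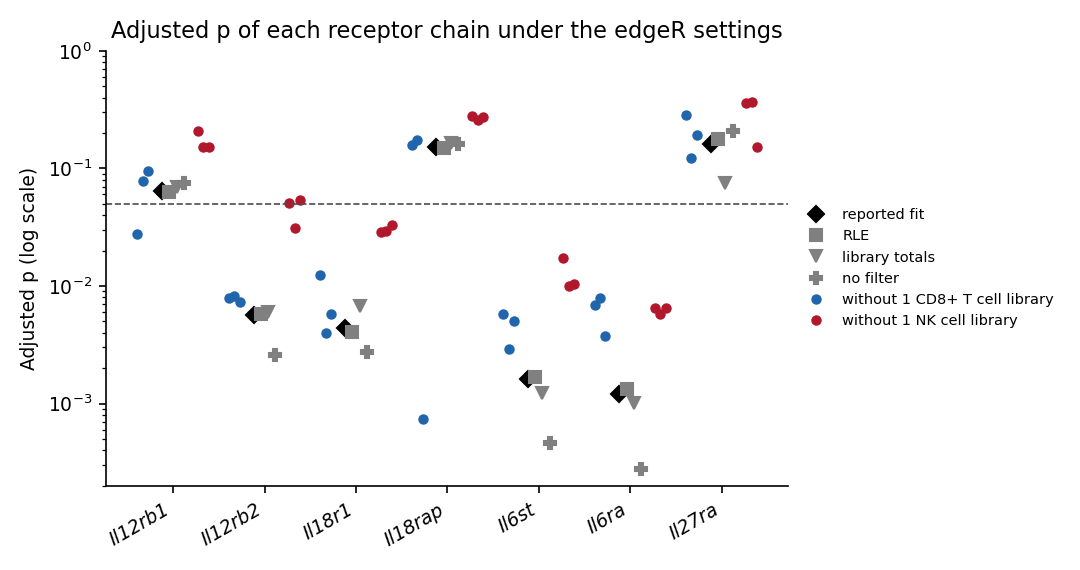
Adjusted p of the 7 tested receptor chains in the reported edgeR fit, under other normalisations or no filter, and without each library, on a log axis with a dashed line at 0.05; DESeq2 values are not drawn. *Il18r1*, *Il6st* and *Il6ra* lie under the line at every point, *Il27ra* at none, and *Il18rap* crosses it only without 1 CD8+ T cell library.

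Levels of different genes were compared as CPM per kilobase of exon (RPKM). In NK cells *Il18rap* was highest at 57.7 RPKM (range 48.8 to 63.1), above *Il18r1* at 36.1 RPKM (33.9 to 38.7), and both lay above the other members in every library. *Il27ra* (14.7 RPKM), *Il12rb2* (12.9 RPKM) and *Il12rb1* (9.42 RPKM) followed, and neighbours among these 3 overlapped, with ranges from 9.82 to 22.8, from 7.64 to 17.7 and from 5.69 to 16.1 RPKM. *Il6st* was far below them at 0.099 RPKM (0.053 to 0.150). Over its longest transcript *Il12rb2* came to 16.3 RPKM, above *Il27ra* in the order of means. With exon bases shared with *Serbp1* left out of its length, it came to 21.4 RPKM, also above *Il27ra*. Without NK cell library 3, *Il12rb1* (10.9 RPKM) lay above *Il27ra* (10.6 RPKM) and *Il12rb2* (10.4 RPKM).

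In CD8+ T cells the order was different. *Il27ra* was highest at 32.3 RPKM (range 21.5 to 44.1) and lay above *Il6ra* at 13.7 RPKM (10.4 to 17.0) in every library. *Il6ra* and *Il6st* (13.5 RPKM, 7.55 to 16.9) could not be told apart by their ranges, and *Il6st* lay above *Il18r1* at 4.65 RPKM (2.95 to 6.12). *Il18r1* overlapped *Il18rap* (1.74 RPKM, 0.0087 to 5.18), and *Il18rap* overlapped *Il12rb1* (0.152 RPKM, 0 to 0.281).

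Chains were then paired into receptors within each library, with a receptor counted as complete at the mRNA level where both chains had more than 3 counts. The IL-12 receptor pair was found in 3 of 3 NK cell libraries and in 0 of 3 CD8+ T cell libraries. In NK cells the ratio of *Il12rb2* to *Il12rb1* (RPKM over the union of exons) was 0.821, 1.34 and 2.75 in libraries 1 to 3. The order of the chains in library 1 depended on the length used. Mean *Il12rb2* was 16.3 RPKM over its longest transcript and 21.4 RPKM without the bases shared with *Serbp1*, in place of 12.9. Over either length *Il12rb1*, whose level did not change, was the lower chain in every NK cell library. The IL-23 receptor pair was found in 0 of 3 libraries of either cell type.

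The IL-18 receptor pair was found in 3 of 3 NK cell libraries and in 1 of 3 CD8+ T cell libraries. *Il18rap* exceeded *Il18r1* in each NK cell library, by a ratio of 1.86, 1.37 and 1.58 in RPKM. In CD8+ T cell library 3 the ratio was 0.846, and in the other two *Il18r1* was present with *Il18rap* at 3 counts or fewer. CD8+ T cells thus had the ligand-binding chain in every library and its partner in 1.

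The IL-6 receptor pair was found in 3 of 3 CD8+ T cell libraries and in 0 of 3 NK cell libraries. The ratio of *Il6ra* to *Il6st* in CD8+ T cells was 1.00, 1.83 and 0.642 in libraries 1 to 3, with no constant order of the chains. The IL-27 receptor pair was found in all libraries of both cell types, but with unequal chains in NK cells. There the ratio of *Il27ra* to *Il6st* was 121, 186 and 152 in libraries 1 to 3, against 2.60, 2.85 and 1.94 in CD8+ T cells. *Il6st* was the lower chain of this pair in all 6 libraries.

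**Figure D4:**
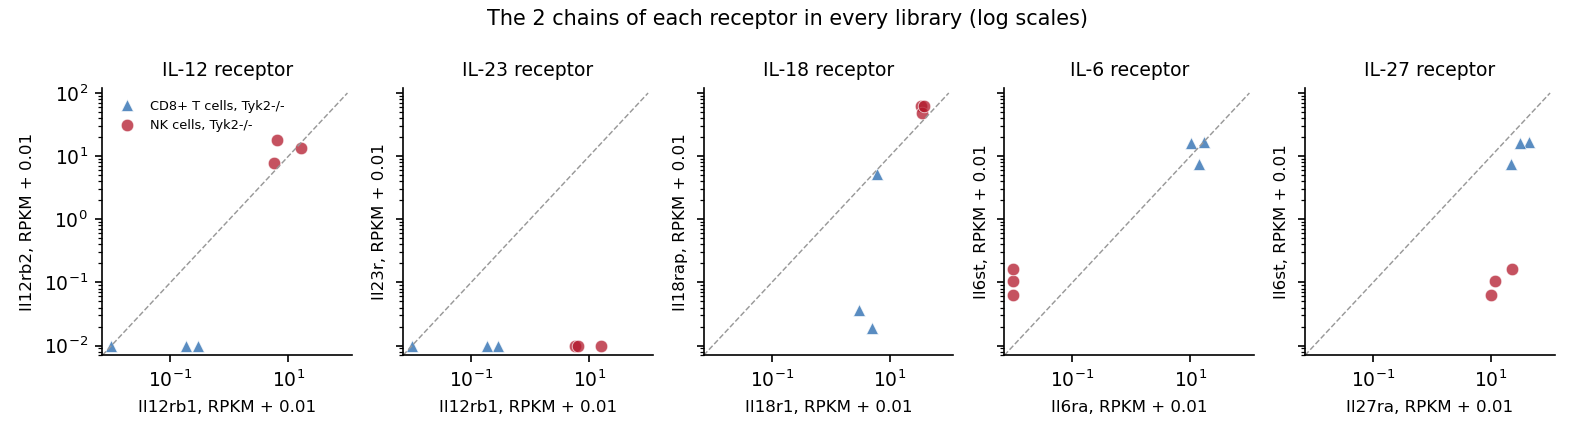
RPKM plus 0.01 of one chain against that of its partner for 5 receptors, on log axes, with 1 point per library and a dashed line at equal levels. NK cells lie at the upper right for the IL-12 and IL-18 receptors, CD8+ T cells for the IL-6 receptor, and the NK cell points of the IL-27 receptor lie 121 to 186 times toward *Il27ra*.

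The IL-18 receptor genes belong to a cluster of IL-1 receptor family genes on chromosome 1, and the neighbours did not share their level in NK cells. *Il18r1* and *Il18rap* lie 14508 bases apart. *Il1rl1*, which encodes the IL-33 receptor and ends 137 bases before *Il18r1*, had 60, 102 and 0 counts in NK cell libraries 1 to 3 and 0 in each CD8+ T cell library. *Il1r1*, *Slc9a4* and, apart from 6 counts in NK cell library 1, *Slc9a2* were at 0. *Il1rl2*, the IL-36 receptor, had 521, 112 and 4 counts in CD8+ T cell libraries 1 to 3 and 75, 1 and 0 in NK cell libraries 1 to 3. Next to *Il6st*, at 9812 bases, lies *Il31ra*, a further chain of the gp130 family, which was at 0 but for 1 count in NK cell library 3.

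For each tested receptor gene, the gene with the most similar profile over the 6 libraries was sought among 8993 protein-coding genes by the root mean square difference of centred log2 values. For *Il18r1* this was *Reep5* (difference 0.062), with 3727, 2401 and 5776 counts in CD8+ T cell libraries 1 to 3 and 34275, 42223 and 44694 in the NK cell libraries. For *Il12rb2* it was *Rhpn1* (0.15), at 0 in each CD8+ T cell library and at 1174, 930 and 1710 counts in NK cells. For *Il6ra* it was *Fam169b* (0.19), with 4654, 3164 and 3600 counts in CD8+ T cells and 0 in each NK cell library. *Il27ra* was closest to *Tatdn1* (0.13), *Il12rb1* to *Dusp5* (0.59), *Il6st* to *St6gal1* (0.60) and *Il18rap* to *Hhat* (0.72). *Hhat* had 0, 0 and 223 counts in CD8+ T cell libraries 1 to 3, where *Il18rap* had 1, 3 and 756. These distances describe 6 libraries of 2 cell types and carry no test.

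A list of 42 further genes around these receptors was read from the same fit. Of 30 that were tested, 4 (13.3%) were called against 11.4% of all genes, with NK cells above for 3 and below for 1, and with a median log2 difference of 0.31 against 0.10 over all genes tested. The median was also 0.31 with the 3 genes that were at 0 in every CD8+ T cell library set to their bound. The ligand subunits were largely undetected. *Il12b*, *Il23a* and *Il6* were at 0 in all 6 libraries, and *Il18*, the only tested ligand gene, had 0, 383 and 93 counts in NK cell libraries 1 to 3 and 0 in each CD8+ T cell library. None of the 4 tested related receptor chains was called by edgeR or by DESeq2, and 1 had an unadjusted p under 0.05 in edgeR.

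Of the 9 kinases and adaptors, 2 were called, both higher in NK cells. *Jak1*, the kinase on gp130, had 19425, 14066 and 15355 counts in CD8+ T cell libraries 1 to 3 and 53471, 55502 and 52801 in NK cell libraries 1 to 3, a log2 difference of 1.39 ± 0.20 (SE, adjusted p = 0.010, edgeR). The call of *Jak1* was lost without NK cell library 1 (adjusted p = 0.056) or 3 (adjusted p = 0.053). *Irak2*, a kinase downstream of MyD88, had 6, 43 and 10 counts in CD8+ T cell libraries 1 to 3 and 1244, 1384 and 1514 in NK cell libraries 1 to 3, a log2 difference of 5.74 ± 1.04 (SE, adjusted p = 0.020, edgeR). The call of *Irak2* was lost without any 1 of the NK cell libraries (adjusted p from 0.083 to 0.094). *Tyk2* itself differed by 2.51 ± 0.75 (SE, adjusted p = 0.075, edgeR), and *Myd88*, *Irak1*, *Irak4*, *Traf6*, *Map3k7* and *Jak2* were not called either.

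Among the STAT genes, *Stat4*, the main STAT of the IL-12 receptor, had a log2 difference of 0.72 ± 0.28 (SE, adjusted p = 0.15, edgeR), and *Stat3*, that of gp130, one of -0.51 ± 0.48 (SE, adjusted p = 0.52, edgeR).

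None of 5 inhibitors was called by edgeR or by DESeq2, and 0 had an unadjusted p under 0.05. Of the 2 sheddases of IL-6Rα, 0 were called by edgeR, 1 had an unadjusted p under 0.05, and DESeq2 called 1. *Sigirr*, an inhibitor of IL-1 family receptors, was the most abundant of the inhibitors, with 219.2 ± 9.0 CPM in NK cells and 202.5 ± 79.9 CPM in CD8+ T cells (SD, n = 3 each). Of the 6 tested target genes, 3 had an unadjusted p under 0.05 in edgeR, and DESeq2 called 3. The edgeR fit called 1. *Tbx21*, which encodes the T-box factor T-bet, had 0, 11 and 0 counts in CD8+ T cell libraries 1 to 3 and 40199, 38755 and 33386 in NK cell libraries 1 to 3 (adjusted p = 0.0022, edgeR), and it was called with any 1 library left out. *Ifng* had 0, 384 and 0 counts in CD8+ T cell libraries 1 to 3 and 1597, 2140 and 1541 in NK cell libraries 1 to 3, with no overlap but an adjusted p of 0.37 (edgeR). CD8+ T cell library 2 alone held the *Ifng* counts of its group, and it was not the library with *Il18rap*.

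**Figure D5:**
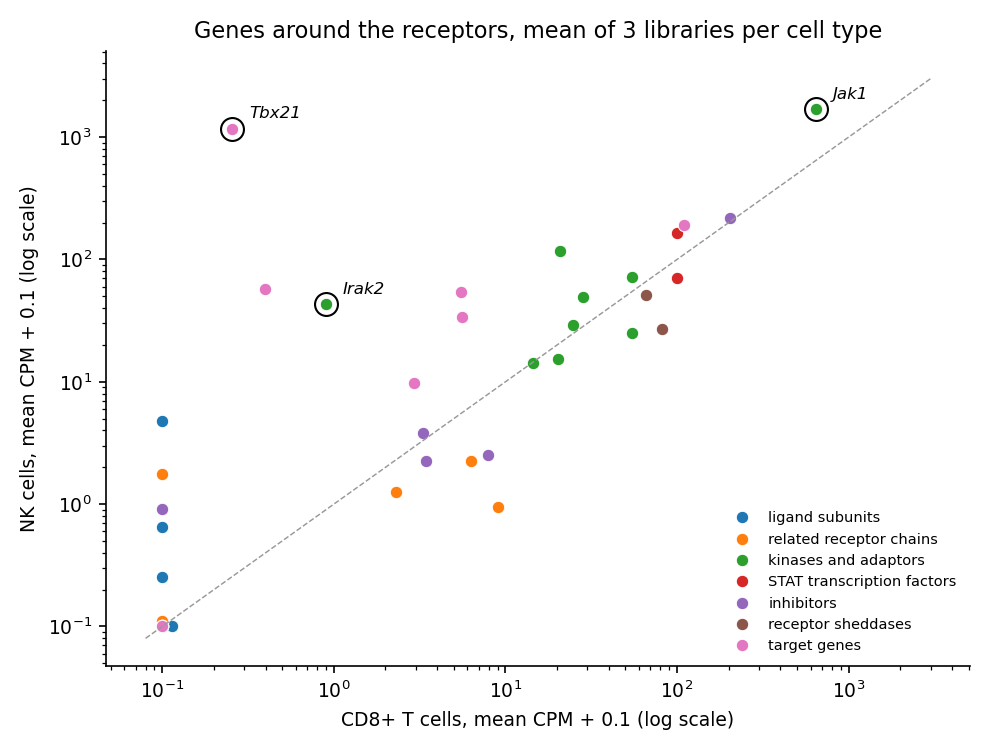
Mean CPM plus 0.1 of 41 genes around the receptors in NK cells against CD8+ T cells, on log axes, coloured by role, with 3 called genes ringed and a dashed line at equal levels. *Tbx21*, *Irak2* and *Jak1* lie above the line.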

How the data were processed

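Sorted spleen populations (NK cells, CD8+ T cells) from *Tyk2*-/- mice were profiled by RNA-seq, after Smart-seq2-type amplification and short single-end sequencing. The authors trimmed the reads (Trimmomatic 0.32), aligned them to mm10 (STAR 2.7.1), counted unique reads in the exons of each gene with summarizeOverlaps (R 3.2.3) and deposited raw counts, without normalisation. Versions are from the submitters' processing notes. Since only unique alignments were counted, values of genes with near-identical copies can be too low. The table holds 104 value columns; 6 entered this work and 98 did not. WT CD8+ T cells were not used here, since 3 columns carry that label against 2 samples. The planned comparison of *Tyk2*-/- with WT was therefore not run. Of 54232 gene IDs, 54079 matched a position in GENCODE's GRCm38 annotation.

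CPM and RPKM were computed with TMM factors (edgeR 4.0.16 in R 4.3.3), the latter over the union of exons. The 14062 genes whose normalised counts averaged 10 or more were tested by glmQLFit with robust estimation and glmQLFTest, with Benjamini-Hochberg adjustment over all of them, at 0.05. Standard errors are the log2 difference divided by the square root of F. Means and ranges were computed with Python 3.11.15 and pandas 2.3.3. Alternatives were RLE factors, library totals only, no filter, DESeq2 1.42.0, the longest transcript as length and each library left out, and leaving shared exon bases out of the length was added after seeing the data. Named genes were all receptor chains, called genes of the list around them (at most 3 per role), the closest profile (minimum mean of 100, pseudocount 1) and markers. Protein-coding neighbours within 200 kb were also read. *Il1rl2*, *Il31ra*, *Serbp1*, *Klrb1c*, *Gzma*, *Cxcr3*, *Cxcr6*, *Eomes*, *Ifng*, *Il18*, *Sigirr* and other uncalled genes with values were named after their values were seen. The receptor genes and all lists were chosen with earlier results of these data known. A few listed genes are left unreported, and the marker sums and the plot of genes around the receptors omit them.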

Additional observations from a re-analysis of the deposited data

How the results depend on the processing

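No paired analysis was possible because the NK cell and CD8+ T cell samples share no replicate number. Cell type and set of replicate numbers thus coincide, and no count column states the number of its sample. Of the receptor genes, 4 were called, and 4 again with RLE factors, with library totals only and without the filter. DESeq2 called 6, of which 4 were higher in NK cells, and it called 3731 genes in all (26.8%), with NK cells above for 2158 and below for 1573. Leaving out 1 library at a time gave 3 to 5 called receptor genes, with NK cells above for 1 to 3 and CD8+ T cells above for 2 in each case. Over all genes these counts ran from 476 to 1946, from 236 to 1205 and from 240 to 741, against 1600, 877 and 723. The lowest totals came without NK cell library 1 (482), 2 (485) or 3 (476). Of the genes around the receptors, DESeq2 called 9 against 4, with NK cells above for 7 and below for 2. Leaving out 1 library gave 1 to 6, with NK cells above for 1 to 5 and below for 0 to 1. With library totals only, 2 of these genes were called higher in CD8+ T cells. That scaling also placed 751 genes above in NK cells and 1112 above in CD8+ T cells, so that 40.3% and not 54.8% of calls were higher in NK cells, with the median log2 difference of all genes at -0.27 in place of 0.10. The cause was not tested. No receptor gene changed direction under any of the 10 alternatives: *Il18r1*, *Il6st* and *Il6ra* were called in 10, *Il12rb2* in 8, *Il12rb1* and *Il18rap* in 2 and *Il27ra* in 0. The biological coefficient of variation was 1.43 among CD8+ T cell libraries and 0.855 among NK cell libraries, and 3 libraries per group limit what this spread allows to be called. The *Il18r1* level in NK cells was 41.8 RPKM over its longest transcript in place of 36.1.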
